A study of Mus musculus with 12 samples.

Results

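The genotype difference in the IL-4 response was taken, gene by gene, as the log2 response of the libraries labelled CKO (IL-4 minus untreated) minus the log2 response of the WT libraries. It was measured for all 16292 genes that passed a filter on low counts, of 48440 genes in the table of counts. Mouse bone marrow-derived macrophages were left untreated or given IL-4 at 20 ng/mL, and RNA was taken at 24 h. The 4 groups were WT untreated, WT with IL-4, CKO untreated and CKO with IL-4, with 2 libraries in each and 8 libraries in all. The other 4 of the study's 12 libraries, from WT and CKO cells given IFN-γ at 100 U/mL, entered the fit for its estimate of the spread. The labels do not spell out CKO and name neither the deleted gene, nor a Cre driver, nor the strain or age of the mice, and the title of the study names IRF8. Nor do they tie the 2 libraries in each group to separate mice. Each p-value thus measures the spread between these libraries, which may be technical. A positive difference means that IL-4 raised a gene more, or lowered it less, in the CKO libraries.

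IL-4 is a type 2 cytokine made by T helper cells, mast cells, basophils and eosinophils. It binds the IL-4 receptor alpha chain on macrophages, and the receptor-bound Janus kinases phosphorylate the transcription factor STAT6, which enters the nucleus and binds palindromic sites near its target genes. In mouse macrophages this switches on arginase, chitinase-like and resistin-like proteins, lectin receptors and CC chemokines, together with further transcription factors such as EGR2, MYC, IRF4 and PPARγ. IRF8 is a myeloid transcription factor that binds DNA with partners of the ETS and IRF families and is best known for its part in monocyte and dendritic cell development and in the interferon response.

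Total counts ranged from 21287725 to 32717379 per library over the 12 libraries. The library labelled CKO untreated 1 stood apart in its mitochondrial RNA content. Mitochondrially encoded genes took 1.52% of its counts, against 2.12% to 3.25% in the others, and the mitochondrial ribosomal RNA mt-Rnr2 took 0.298%, against 0.925% to 1.54%. The gene model Gm42418 took 1.28% of the counts in CKO untreated 1, 1.05% in WT untreated 1 and 0.753% in WT IFN-γ 1. In the other libraries it took 0.0717% to 0.174%. Its part in the results was not tested. CKO untreated 1 and WT untreated 1 are both arms of the difference. For many results that move when CKO untreated 1 is left out, the value without it is also given. Irf8 was not lower in the CKO libraries. In CPM, the count as a share of the scaled library total on the usual per-1000000 basis, it stood at 90.9 and 91.2 in untreated WT, 70.9 and 65.7 in WT with IL-4, 293 and 248 in untreated CKO, and 169 and 139 in CKO with IL-4. A count summed over the gene does not show whether part of a transcript is missing, so it does not check the label, and CKO is used below only as the name on the libraries. The 22 macrophage markers listed, none of them at 0, summed to 24200 to 28800 CPM in the 4 WT libraries. In the 4 CKO libraries they summed to 16300 to 22000, so the sums did not overlap. A sum weighs the most abundant genes most, and single markers differed from it. In untreated CKO 8 were higher and 3 lower than in WT past the test, where 8.60% and 9.37% of all tested genes were, with a median of 0.256. With IL-4, 0 were higher and 3 lower, where 1.41% and 1.55% were, with a median of 0.0413. Of these markers 18 had a negative difference in the IL-4 response, with a median of -0.25, which was -0.16 without CKO untreated 1 and -0.09 without CKO IL-4 2. None was called for the difference by edgeR, while DESeq2 called 2, both positive. At an unadjusted p under 0.05 in edgeR 2 were positive and 5 negative, where 2.95% and 3.08% of all tested genes were. The part of macrophage marker content in the results below was not tested. Fewer cells of a type and less RNA per cell cannot be told apart in these bulk samples.

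Both genotypes responded to IL-4, and most of the genes past the test in WT were also past it in CKO. In WT, 1992 of the 16292 genes passed the test (edgeR quasi-likelihood test, Benjamini-Hochberg adjusted p under 0.05), or 12.2%, with 1081 raised (6.64%) and 911 lowered (5.59%). In CKO, 3664 genes passed, or 22.5%, with 1828 raised (11.2%) and 1836 lowered (11.3%). Both responses passed for 1566 genes, of which 1563 had the same direction, 864 raised and 699 lowered. These 1563 were 78.5% of the WT calls and 42.7% of the CKO calls. The 3 remaining genes moved in opposite directions, and Acod1 was one of them. Over all 16292 genes, which are not independent replicates, the 2 responses had a Pearson r of 0.783 and a Spearman rho of 0.641. The r was 0.674 to 0.749 when 1 library was left out. With no filter on low counts it was 0.312, with a rho of 0.37, over 25508 genes. The WT and CKO responses share no library. The 2 counts of calls depended on single libraries: leaving out 1 of the 4 WT libraries gave 898 to 1072 WT calls, leaving out CKO untreated 1 gave 2031 CKO calls, and leaving out CKO IL-4 2 gave 1725. Whether the CKO response was larger over all genes was not tested.

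**Figure D1:**
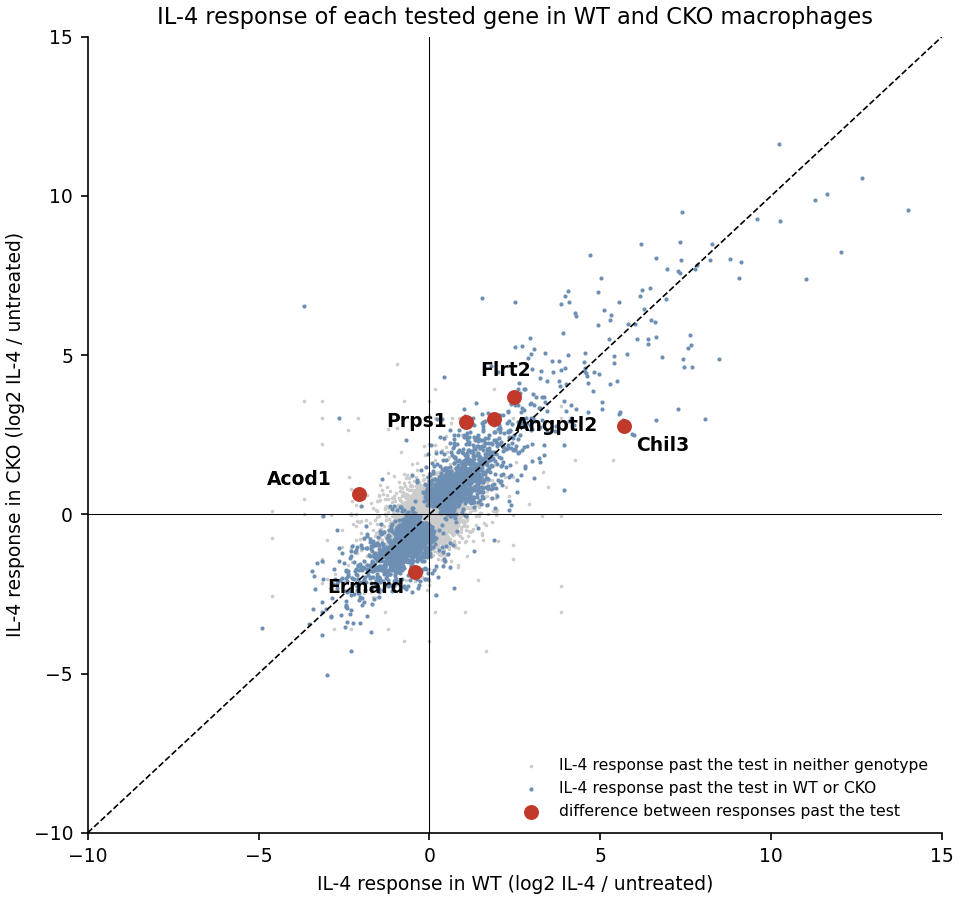
Each point is 1 of the 16292 tested genes, with its IL-4 response in WT on the horizontal axis and in CKO on the vertical axis (log2 of IL-4 over untreated, 2 libraries a group), and the dashed line marks equal responses. Of the 1992 genes past the test in WT, 1957 had the same sign in CKO, and the 6 named genes in red are those whose 2 responses differed past the test. The far points at the upper right are genes with few or no untreated counts, whose fitted values are imprecise.

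The difference itself passed the test for 6 genes, which is 0.0368% of those tested. The response was more positive in CKO for Acod1, Flrt2, Prps1 and Angptl2 (4 genes, 0.0246%) and more negative for Chil3 and Ermard (2 genes, 0.0123%). At an unadjusted p under 0.05 there were 981 genes, or 6.02% of those tested, with 480 positive (2.95%) and 501 negative (3.08%). The median difference over all genes was -0.000311, and 49.9% of genes were positive. Genes whose mean log2 CPM was 3 or more had a median standard error of 0.182 for the difference, against 0.129 for the WT response and 0.128 for the CKO response. The 6 called differences had sizes from 1.12 to 2.92. DESeq2, run on the same groups, called 42 genes, and all 6 were among them. An edgeR fit to only the 8 libraries of the comparison called 0 genes, with 748 at an unadjusted p under 0.05.

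How much difference the data leave room for was read from the 95% intervals. The interval lay within a 2-fold difference in either direction for 10046 genes, or 61.7% of those tested. Among the 4090 genes that responded to IL-4 in either genotype, 2653 (64.9%) had such an interval. Among the 1391 that responded at least 2-fold in either genotype, 332 (23.9%) did. For the others the interval reached beyond a 2-fold difference on at least one side.

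Acod1 had the difference with the smallest p. It encodes aconitate decarboxylase 1, the enzyme that makes itaconate from a citric acid cycle intermediate in activated macrophages, and lies at chr14:103046977-103056573 on the plus strand (GRCm38). Its level was 8.25 and 7.81 CPM in untreated WT, 2.12 and 1.76 in WT with IL-4, 4.25 and 3.63 in untreated CKO, and 5.17 and 7.09 in CKO with IL-4. The WT libraries were thus highest without IL-4 and lowest with it, the CKO libraries lay between them in the opposite order, and no 2 groups overlapped. Acod1 fell 4.18-fold in WT (adjusted p = 1.02e-05, edgeR) and rose 1.57-fold in CKO (adjusted p = 0.0113, edgeR). The difference was 2.71 ± 0.233 (SE) on the log2 scale, with a 95% interval from 2.20 to 3.22 (adjusted p = 0.00136, edgeR). It passed the test in each of the 8 fits that left out 1 library, with values from 2.46 to 2.90, and missed it in the fit to only 8 libraries (adjusted p = 0.0682, edgeR). Among the 31 tested inflammatory cytokine and NF-κB target genes, Acod1 was the only call for the difference. With IL-4, 11 of them fell and 2 rose in WT, where 5.59% and 6.64% of all tested genes did. In CKO 12 fell and 4 rose, where 11.3% and 11.2% did. The CKO IFN-γ response of Acod1 also exceeded the WT one, by 1.97 (adjusted p = 0.000502, edgeR), in a comparison that shares the 4 untreated libraries and in which 2.72% of all tested genes passed.

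Flrt2 encodes a membrane protein with leucine-rich repeats that acts in cell adhesion and axon guidance, at chr12:95692226-95785215 on the plus strand. It stood at 49.0 and 43.3 CPM in untreated WT and at 261 and 251 with IL-4. In CKO it stood at 9.18 and 8.88 CPM untreated and at 112 and 123 with IL-4. All 4 CKO values therefore differed from the WT values of the same treatment, being lower in both, and the 4 groups did not overlap. Flrt2 rose 5.55-fold in WT and 13-fold in CKO, a difference of 1.23 ± 0.139 (SE; adjusted p = 0.0137, edgeR). The call was lost without WT untreated 1 (1.16, adjusted p = 0.11), WT IL-4 1 (1.25, 0.119) or WT IL-4 2 (1.23, 0.101), edgeR in each.

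Angptl2 encodes a secreted angiopoietin-like protein, at chr2:33216069-33247717 on the plus strand, inside a stretch where Ralgps1 lies on the opposite strand. The strand setting of the counting is not given in the sources used here. Reads of the 2 genes may not have been told apart. It stood at 120 and 118 CPM in untreated WT, 435 and 441 in WT with IL-4, 38 and 47.1 in untreated CKO, and 331 and 352 in CKO with IL-4. CKO was lower than WT in both treatments, and by less with IL-4 than without. With IL-4 the genotype comparison did not pass the test (adjusted p = 0.133, edgeR). Angptl2 rose 3.69-fold in WT and 8.02-fold in CKO, a difference of 1.12 ± 0.160 (SE; adjusted p = 0.0487, edgeR). The call was kept in only 1 of the 8 fits that left out a library, that without CKO untreated 2. In the other 7 fits the difference lay between 0.97 and 1.16 with edgeR adjusted p from 0.0633 to 0.302.

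Prps1 encodes phosphoribosyl pyrophosphate synthetase 1, which makes the sugar phosphate from which purine and pyrimidine nucleotides are built, at chrX:140456613-140476140 on the plus strand. It stood at 14.4 and 14.5 CPM in untreated WT, 29.8 and 30.6 in WT with IL-4, 7.59 and 10.6 in untreated CKO, and 73.3 and 62.1 in CKO with IL-4. The CKO libraries were the lowest of the 4 groups without IL-4 and the highest with it. Prps1 rose 2.08-fold in WT and 7.41-fold in CKO, a difference of 1.83 ± 0.227 (SE; adjusted p = 0.0183, edgeR). The call was lost in 5 of the 8 fits that left out a library. These were without WT untreated 1 (1.86, adjusted p = 0.11), WT untreated 2 (1.85, 0.113), WT IL-4 1 (1.8, 0.192), WT IL-4 2 (1.87, 0.111) and CKO IL-4 1 (1.69, 0.0662), edgeR in each.

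Chil3 encodes Ym1, a secreted chitinase-like lectin that is a standard mark of IL-4 treated mouse macrophages and is also made by neutrophils and their precursors. It lies at chr3:106147554-106167564 on the minus strand. It stood at 12.4 and 11.0 CPM in untreated WT and at 754 and 449 with IL-4. In CKO it stood at 108 and 78.8 CPM untreated and at 693 and 571 with IL-4. The IL-4 treated libraries of the 2 genotypes overlapped, while the untreated CKO libraries lay well above the untreated WT ones. Chil3 thus rose 51.5-fold in WT and 6.79-fold in CKO, a difference of -2.92 ± 0.324 (SE), with a 95% interval from -3.64 to -2.21 (adjusted p = 0.0165, edgeR). The untreated CKO level exceeded the untreated WT level 7.97-fold (adjusted p = 5.23e-05, edgeR), and with IL-4 the ratio was 1.05 (adjusted p = 0.944, edgeR). These 2 comparisons use the same 8 libraries as the difference and are its parts, not further evidence.

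The call on Chil3 was kept without WT IL-4 1 (-2.51, adjusted p = 0.0106), WT IL-4 2 (-3.23, 0.00147) or CKO untreated 2 (-3.14, 0.00769), edgeR in each. It was lost without WT untreated 1 (-2.99, adjusted p = 0.127), WT untreated 2 (-2.82, 0.197), CKO untreated 1 (-2.68, 0.0564), CKO IL-4 1 (-3.09, 0.0563) or CKO IL-4 2 (-2.79, 0.0799), edgeR in each. Chil3 has close copies. Chil4 had a difference of -2.40 (adjusted p = 0.0673, edgeR) and the gene model Gm6522 one of -3.41 (adjusted p = 0.151, edgeR). How reads shared by these copies were assigned is not given in the sources used here. The 3 values may therefore not be independent.

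Neutrophil marker levels moved with the Chil3 values in the untreated libraries. The other 19 tested neutrophil markers summed to 263 and 257.5 CPM in untreated WT, 245.5 and 237 in WT with IL-4, 1042 and 766 in untreated CKO, and 549.6 and 466 in CKO with IL-4. Mmp8 made up most of each sum, with 196.1 and 180.5, 174.7 and 176.5, 673.3 and 548.9, and 306.6 and 259.1 CPM in the same order. Over all 20 tested markers, Chil3 included, the median log2 CKO minus WT was 2.12 untreated and 2 with IL-4. Of the 20 tested markers, Chil3 included, 17 were higher in untreated CKO than in untreated WT and 12 were higher with IL-4, where 8.60% and 1.41% of all tested genes were. S100a8, a calcium-binding protein abundant in neutrophils, stood at 9.37 and 11.2 CPM in untreated WT and at 89.8 and 50.0 in untreated CKO. One listed neutrophil marker, BC100530, was at 0 in all 8 libraries. The part of these cells or transcripts in the Chil3 difference was not tested.

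The 250 bases before the RefSeq start of Chil3 (GRCm38.p6, chr3:106167565-106167814, minus strand, printed 5′ to 3′) are shown because Chil3 is the called gene best known as a direct IL-4 target. On either strand the window holds no TTC followed after 4 bases by GAA, the spacing that STAT6 is known to prefer in palindromic sites. It holds no interferon response element, searched as GAAA followed after 2 bases by GAAA, and no ETS-IRF element, searched as GGAA followed after 2 bases by GAAA. The last 2 motifs share their closing GAAA, so their matches can overlap. The capitals mark TTC followed after 3 bases by GAA, a spacing that STAT proteins share, which was searched after the letters were seen. It begins 172 bases before the start.
Chil3: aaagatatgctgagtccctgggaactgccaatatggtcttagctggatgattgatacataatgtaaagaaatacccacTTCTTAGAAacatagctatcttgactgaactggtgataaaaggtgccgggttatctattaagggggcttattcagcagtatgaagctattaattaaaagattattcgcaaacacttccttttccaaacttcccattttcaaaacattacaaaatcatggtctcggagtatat
The RefSeq table of promoters matched 5 of the 6 called genes, and none of the 5 windows held the 4-base STAT form, the interferon response element or the ETS-IRF element. The 3-base STAT form was in the Chil3 window and in none of the other 4. Among 12561 promoters of tested genes, windows of this length held the 4-base STAT form in 4.8%, the 3-base form in 6.06%, the interferon response element in 2.85% and the ETS-IRF element in 2.05%. A match or its absence in this window is a description of letters only.

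Ermard encodes an endoplasmic reticulum membrane-associated RNA degradation protein. Its identifier was found in the annotation under another version, at chr17:15041208-15090044 on the plus strand, where Tcte3 and Gm3448 lie on the opposite strand, so their reads may not have been told apart. It stood at 46.9 and 43.1 CPM in untreated WT, 34.5 and 32.8 in WT with IL-4, 141 and 106 in untreated CKO, and 33.6 and 36.9 in CKO with IL-4. Only the untreated CKO libraries stood apart, and the IL-4 treated libraries of the 2 genotypes overlapped. In CKO Ermard fell 3.50-fold (adjusted p = 5.17e-06, edgeR), and in WT it changed by -0.42 on the log2 scale, which missed the threshold (adjusted p = 0.0808, edgeR). The difference was -1.39 ± 0.198 (SE; adjusted p = 0.0487, edgeR). The call was kept only without CKO untreated 2; in the other 7 fits that left out a library the value lay between -1.46 and -1.18 with edgeR adjusted p from 0.0564 to 0.304.

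**Figure D2:**
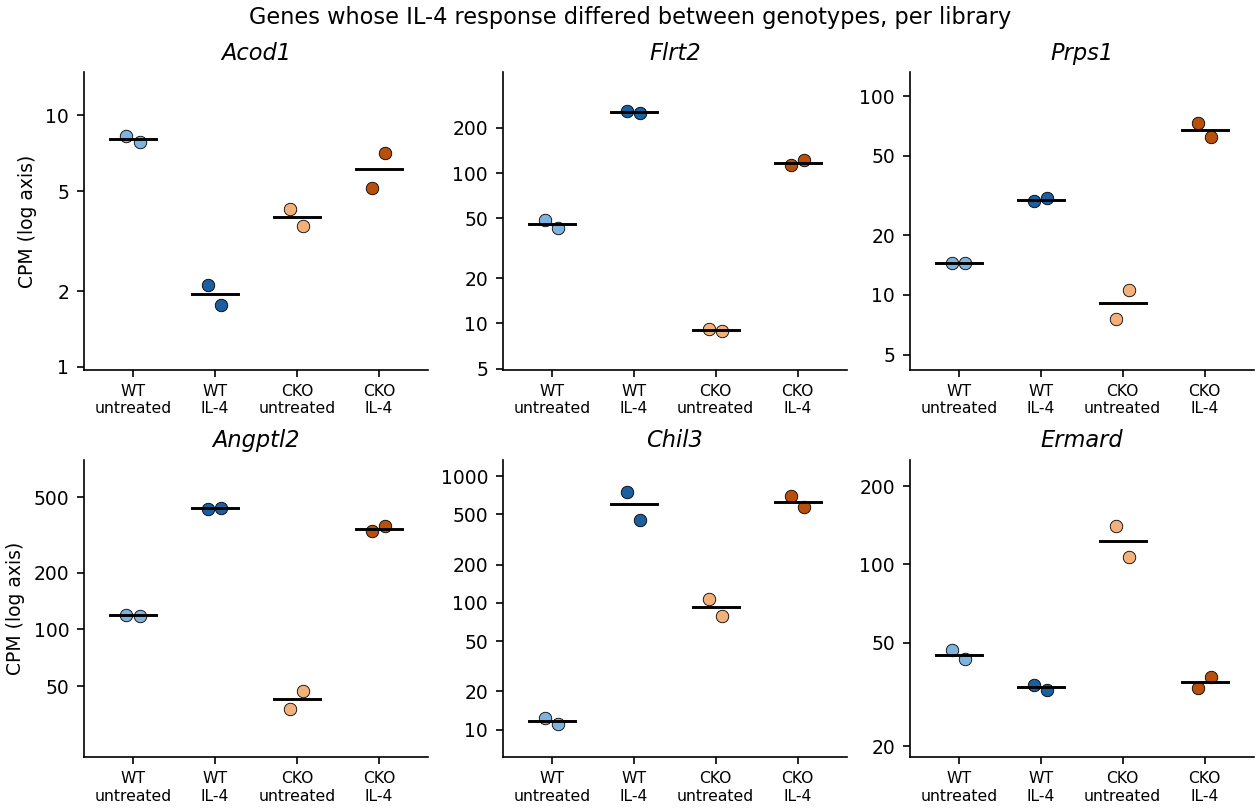
Each panel gives 1 of the 6 called genes, with the CPM of each library as a point and the mean of the 2 libraries as a bar, on a logarithmic axis whose range differs between panels. Chil3 and Ermard differ between genotypes mainly without IL-4, and Acod1 and Prps1 change their order between treatments. Flrt2 and Angptl2 are lower in CKO in both treatments, for Angptl2 past the test only without IL-4.

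The CKO to WT ratio, first untreated and then with IL-4, was 0.489 and 3.20 for Acod1, 0.631 and 2.24 for Prps1, 0.196 and 0.459 for Flrt2, 0.359 and 0.780 for Angptl2, and 2.75 and 1.05 for Ermard. All 6 called genes differed between genotypes without IL-4 past the test, as 18% of all tested genes did. With IL-4, Acod1, Prps1 and Flrt2 did, where 2.96% of all tested genes did. The untreated ratio is subtracted from the treated one to give the difference, so these counts follow in part from the choice of genes.

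Classical IL-4 genes, a set that here also holds Irf8 and Stat6, were examined whether or not they were called. Of 21 such genes fixed for the text, 20 could be tested, and Ccl17, a chemokine gene with 27 counts over the 8 libraries, could not. Of the 20, 14 rose in both genotypes, as 864 of all 16292 tested genes did. Chil3 was the only one whose difference passed the test, with 7 differences positive and 13 negative. Arg1, arginase 1, which splits arginine to ornithine and urea, stood at 0.734 and 1.36 CPM in untreated WT and at 2923 and 2399 with IL-4. In CKO it stood at 2.96 and 0.490 CPM untreated and at 1207 and 1842 with IL-4. The untreated groups overlapped, and the CKO IL-4 libraries were below both WT ones, though CKO minus WT with IL-4 did not pass the test (adjusted p = 0.478, edgeR). The ratio of counts was 2480 in WT (95% counting interval 1930 to 3250) and 996 in CKO (815 to 1230). These intervals cover counting error only, and the fitted difference of -1.43 ± 0.835 (SE) did not pass the test (adjusted p = 0.773, edgeR). Without CKO untreated 1 the Arg1 difference was 0.29, on the other side of 0, and without CKO untreated 2 it was -2.31 and passed (adjusted p = 0.0426, edgeR). With no filter on low counts Arg1, Clec10a, Egr2, Mgl2 and Myc passed the test in edgeR, where 291 genes were called.

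Retnla, which encodes the resistin-like protein RELMα, rose from 2 counts over both untreated WT libraries to 12795 with IL-4, a ratio of 7360 (95% counting interval 2040 to 60800). In CKO it rose from 12 counts to 18847, a ratio of 1520 (871 to 2950). All 12 untreated CKO counts came from library 1, at 0.455 CPM, and library 2 had 0. Ccl22, a chemokine that draws T helper 2 and regulatory T cells through CCR4, rose from 2 counts in each genotype to 452 in WT and 540 in CKO. The ratios of 260 (71.6 to 2150) and 262 (72.1 to 2170) were nearly equal, and their intervals leave room for a difference of several fold. Ccl24 rose by 5.5 in WT and 4.2 in CKO on the log2 scale. Its difference was -1.31 (interval -2.81 to 0.19, edgeR adjusted p = 0.773). Tgm2 passed the test in neither response, with a difference of -0.33 (interval -0.72 to 0.06, edgeR adjusted p = 0.773). Tgm2 was higher in CKO than in WT by 1.64 untreated and 1.31 with IL-4, both past the test. Retnla is shown with its sequence because it was the only one of 14 classical genes with a RefSeq promoter whose 250-base window held the 4-base STAT form, TTC and GAA with 4 bases between. The match, in capitals within 30 bases, begins 145 bases before the RefSeq start (GRCm38.p6, chr16:48842454-48842483, plus strand). The 250-base window overlaps 1 annotated exon, and the annotated gene start, chr16:48842551, lies inside the window, so the distance depends on the start used.
Retnla: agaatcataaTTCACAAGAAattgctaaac

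The lectin receptor genes split. Mrc1, the mannose receptor CD206, stood at 2120 and 2052 CPM in untreated WT and at 4515 and 4398 with IL-4. In CKO it stood at 1053 and 1056 CPM untreated and at 3719 and 3786 with IL-4. The 4 groups did not overlap, and CKO was lower in both treatments. With IL-4 the CKO minus WT value of -0.25 did not pass the test (adjusted p = 0.209, edgeR). Mrc1 rose in both, and the difference of 0.74 ± 0.127 (SE) was not past the test (adjusted p = 0.121, edgeR), with a 95% interval from 0.46 to 1.01. DESeq2 did call Mrc1 (adjusted p = 4.29e-06). Its value was 0.72 to 0.78 over all alternatives, and it passed in 5 of 15. The 2 galactose-type lectin genes had differences of the other sign. Mgl2 stood at 1.08 and 1.09 CPM in untreated WT, 586 and 622 with IL-4, 2.35 and 1.04 in untreated CKO, and 302 and 507 in CKO with IL-4, a difference of -1.17 (interval -2.28 to -0.06; adjusted p = 0.773, edgeR). Without CKO untreated 1 it was -0.52. Clec10a stood at 8.07 and 9.69, 136 and 168, 15.3 and 9.72, and 77.8 and 113 CPM in the same order, a difference of -1.16 (interval -1.86 to -0.46; adjusted p = 0.644, edgeR). Without CKO untreated 2 it was -1.47 and passed (adjusted p = 0.037, edgeR). For both genes the CKO IL-4 libraries lay below both WT IL-4 libraries. CKO minus WT with IL-4 did not pass the test for Mgl2 (adjusted p = 0.33, edgeR) or Clec10a (adjusted p = 0.144, edgeR). Cd209a, a lectin of the DC-SIGN family, had at most 0.569 CPM in any of the 8 libraries, and neither of its responses passed the test.

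For some transcription factors that act after STAT6 the intervals were narrower. Irf4, which directs part of the IL-4 programme, rose by 3.45 in WT and 3.25 in CKO, a difference of -0.20 (interval -0.67 to 0.27). Pparg, a lipid-activated nuclear receptor, rose by 1.67 and 1.85, a difference of 0.18 (interval -0.15 to 0.50). Both intervals exclude a 2-fold difference in either direction. Egr2, an early growth response factor, rose by 3.61 and 4.46, and its difference of 0.85 (interval 0.20 to 1.49) was not past the test (adjusted p = 0.773, edgeR). Without CKO IL-4 1 it was 0.55. Myc, at 20.4 and 29.1 CPM in untreated WT and 6.0 and 12.6 in untreated CKO, rose in CKO by 1.67, and its WT value of 0.81 missed the threshold. Its difference was 0.85 (interval -0.14 to 1.85; adjusted p = 0.773, edgeR), and it was 0.43 without CKO untreated 1 and 1.48 without CKO untreated 2. Of the 18 tested transcription factors in the list, 11 rose and 1 fell in WT, where 6.64% and 5.59% of all tested genes did. In CKO 12 rose and 1 fell, where 11.2% and 11.3% did. None passed the test for the difference by edgeR or DESeq2. At an unadjusted p under 0.05 by edgeR 3 were positive and 1 negative, where 2.95% and 3.08% of all tested genes were. Their median difference was 0.06, and it was -0.03 without CKO IL-4 1 and -0.000715 without WT IL-4 1.

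Receptor and signalling genes had differences from -0.76 to 1.12. Il4ra, the receptor alpha chain, had a difference of 0.17 (interval -0.10 to 0.44), and Stat6 one of -0.05 (interval -0.31 to 0.22), both within a 2-fold range. The feedback inhibitor genes Cish and Socs1 rose in both genotypes, but from under 1 CPM, and their intervals were wide: Cish had 1.12 (interval -0.26 to 2.50), which was 0.52 without WT untreated 2, and Socs1 0.26 (interval -2.01 to 2.53). Of the 18 tested genes of the receptor and STAT6 list, 3 rose and 4 fell in WT, where 6.64% and 5.59% of all tested genes did. In CKO 4 rose and 4 fell, where 11.2% and 11.3% did. None passed the test for the difference by edgeR or DESeq2, none had an unadjusted p under 0.05 in edgeR, and 14 had an interval within a 2-fold difference. Irf8 itself fell by 0.42 in WT and by 0.81 in CKO, a difference of -0.39 (interval -0.74 to -0.05; adjusted p = 0.773, edgeR).

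**Figure D3:**
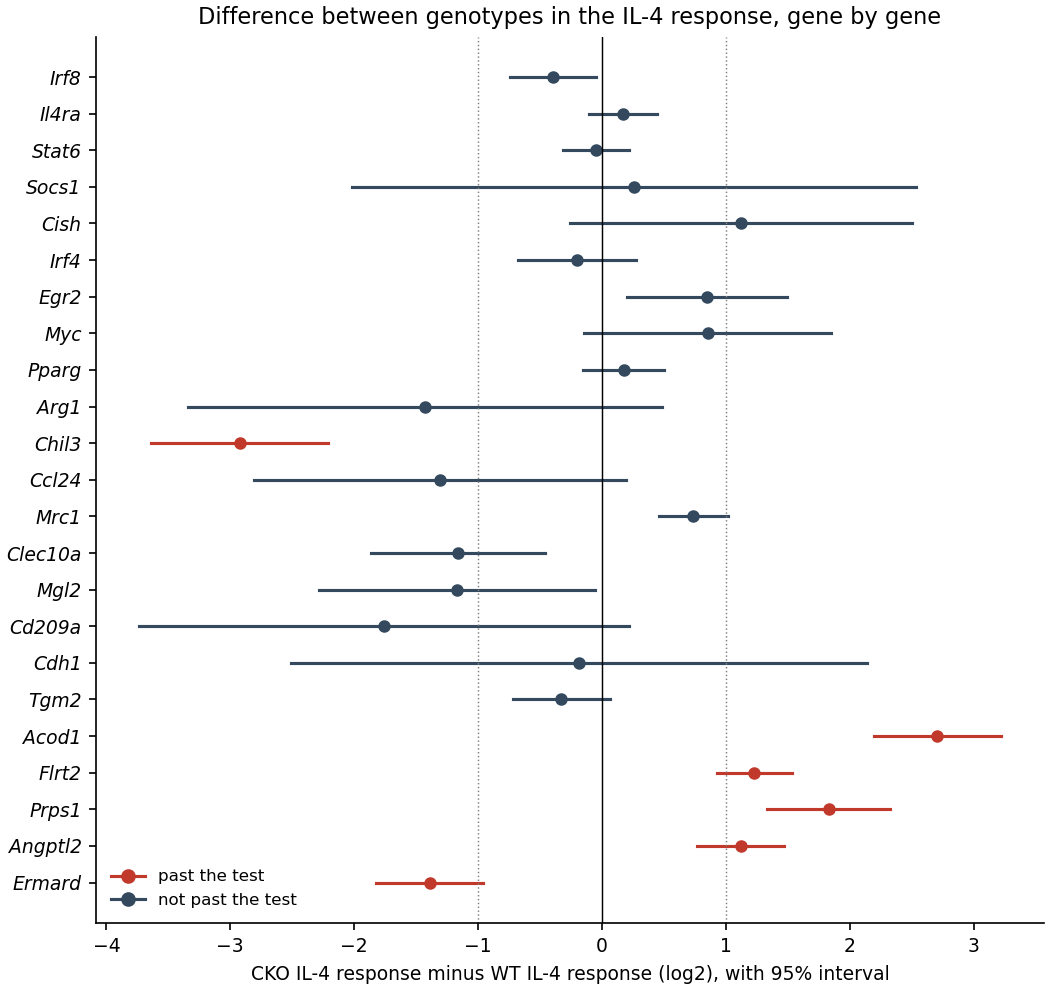
The horizontal axis gives the log2 difference, CKO IL-4 response minus WT IL-4 response, with its 95% interval from the edgeR fit for 18 classical IL-4 genes and the 5 other called genes, and the dotted lines mark a 2-fold difference in either direction. Stat6, Il4ra, Irf4 and Pparg lie within the dotted lines with their whole intervals, Arg1, Cish, Socs1 and Cdh1 do not, and Retnla and Ccl22 are left out because their untreated counts are too few for a fitted value.

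Taking the IL-4 marker lists whole, the secreted and enzyme markers had 24 tested genes. Of these 15 rose and 3 fell in WT, where 6.64% and 5.59% of all tested genes did. In CKO 17 rose and 3 fell, where 11.2% and 11.3% did. Angptl2 and Chil3 passed the test for the difference, and the median was 0.07, against -0.000311 over all genes. DESeq2 called 2 in each direction. That median was 0.33 without CKO untreated 1 and fell on the other side of 0 without WT untreated 2 (-0.00684), CKO untreated 2 (-0.03) or CKO IL-4 1 (-0.07). The 29 tested surface markers had 18 rising in each genotype, 3 falling in WT and 6 in CKO. Their median difference was -0.18, with 9 positive and 20 negative, and none was called by edgeR, while DESeq2 called 1 in each direction. At an unadjusted p under 0.05 in edgeR 3 were positive and 5 negative, where 2.95% and 3.08% of all tested genes were. Without CKO untreated 1 the median of the surface markers was -0.03 with 14 positive, and without CKO IL-4 2 it was -0.04 with 13 positive. Tfrc, the transferrin receptor, and Klf4, a zinc finger factor, were chosen after their values were seen as strong responses with a narrow interval. Tfrc rose by 1.97 in WT and 2.16 in CKO, a difference of 0.19 (interval -0.16 to 0.55). Klf4 rose by 3.23 and 3.36, a difference of 0.13 (interval -0.24 to 0.49).

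**Figure D4:**
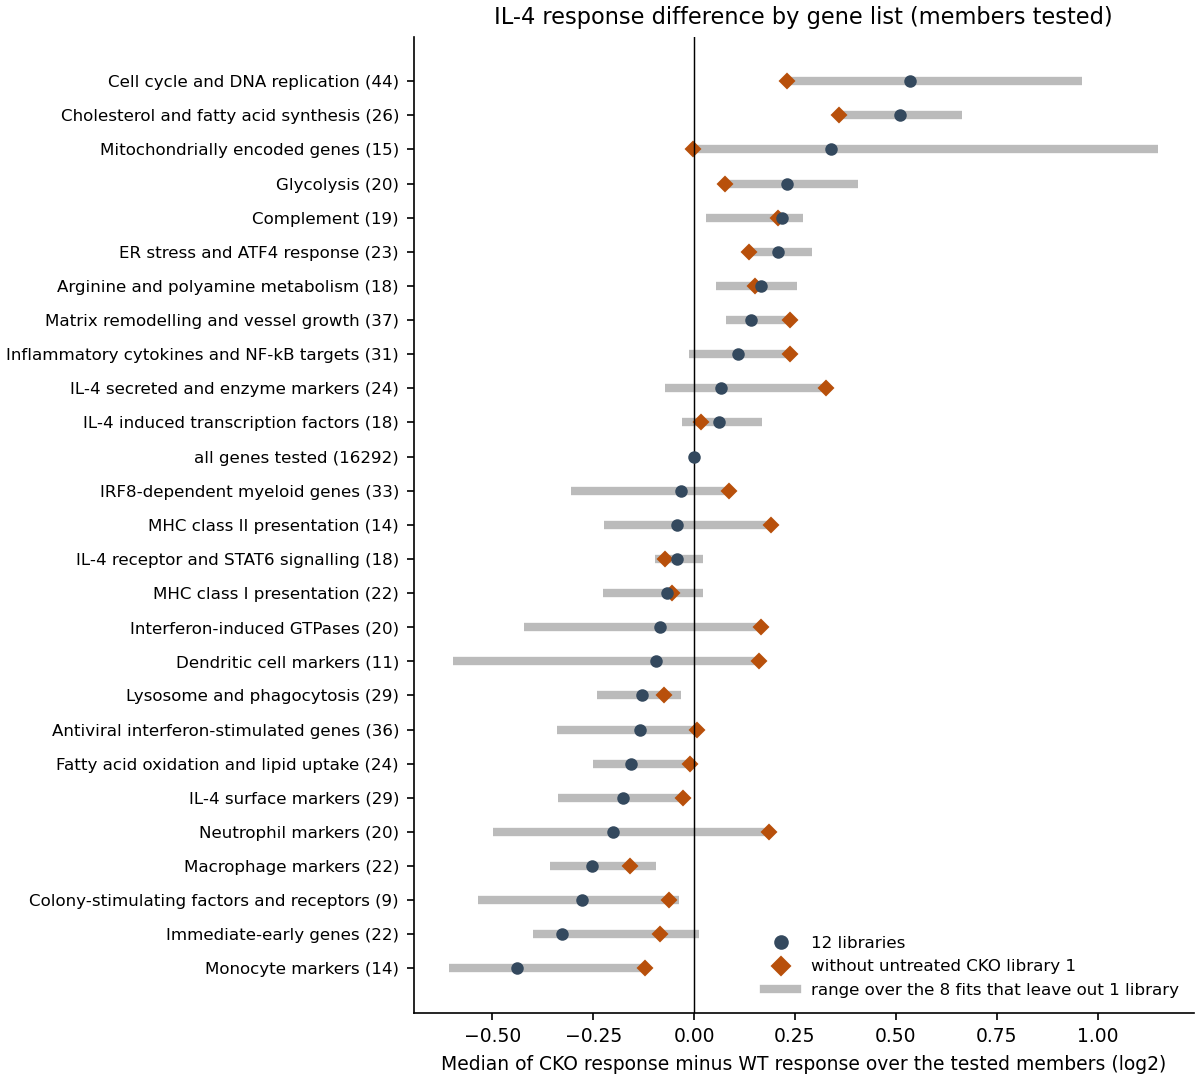
Each row is a gene list with the number of members tested (lists with at least 9), and the horizontal axis is the median log2 difference, CKO IL-4 response minus WT IL-4 response. Circles are the fit to 12 libraries, diamonds leave out untreated CKO library 1, and grey bars span the 8 fits that leave out 1 library. The sterol and cell cycle lists keep a positive median throughout, and the mitochondrial list drops to -0.00172 without that library.

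Cholesterol and fatty acid synthesis genes had a positive difference in all 26 tested members. These enzymes and their regulators are driven together by the SREBP transcription factors when sterols are low. IL-4 raised 21 of the 26 in CKO, where 11.2% of all tested genes rose, and 2 in WT, where 6.64% did. The median response was 0.12 in WT and 0.66 in CKO, and the median difference was 0.51, against -0.000311 over all genes. No member passed the test for its difference by edgeR or by DESeq2, and 16 had an unadjusted p under 0.05 in edgeR, all positive, where 2.95% of all genes did. In the untreated comparison 25 of the 26 were lower in CKO, with a median of -0.75, where 9.37% of all genes were lower. With IL-4 only Scd1 was lower past the test, where 1.55% of all genes were, and the median was -0.25. These 2 comparisons share all 8 libraries with the difference. The genes also share their regulation, so 26 members are not 26 independent observations.

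The values of single genes, chosen here after they were seen, show the pattern. Fasn, fatty acid synthase, stood at 316 and 328 CPM in untreated WT, 419 and 506 in WT with IL-4, 96.1 and 153 in untreated CKO, and 260 and 361 in CKO with IL-4. Its WT response of 0.52 missed the threshold and its CKO response of 1.32 passed, with a difference of 0.80 (adjusted p = 0.773, edgeR). Sqle, squalene epoxidase, stood at 150 and 165, 164 and 178, 64.5 and 94.2, and 112 and 138 CPM in the same order. In both genes the untreated CKO libraries were the lowest 2 of the 8.

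How far the sterol result rests on single libraries was checked in the fits that left out 1 library. The median difference ran from 0.36, without CKO untreated 1, to 0.66, without CKO untreated 2, and 25 or 26 of the 26 members were positive in each of the 8 fits. The count of members that rose in CKO was less stable. It was 10 without CKO untreated 1 and 10 without CKO IL-4 2, and 19 to 22 in the other fits.

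Hmgcs1, the synthase that commits carbon to the sterol pathway, is shown with its sequence because its window holds a sterol-type element and overlaps no annotated exon. It stood at 227 and 270 CPM in untreated WT, 268 and 289 in WT with IL-4, 162 and 176 in untreated CKO, and 253 and 250 in CKO with IL-4. The 250 bases before its RefSeq start (GRCm38.p6, chr13:119690101-119690350, plus strand) hold 1 match to TCACNNCAC, a form of the sterol regulatory element, in capitals, which begins 137 bases before the start. The bases just after this start were not found in an annotated Hmgcs1 transcript, so the distance depends on the start used.
Hmgcs1: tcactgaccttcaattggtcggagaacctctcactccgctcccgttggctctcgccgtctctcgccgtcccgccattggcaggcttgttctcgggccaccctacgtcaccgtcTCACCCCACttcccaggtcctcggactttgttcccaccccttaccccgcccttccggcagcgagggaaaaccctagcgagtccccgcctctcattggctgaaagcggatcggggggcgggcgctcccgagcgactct
RefSeq promoters were found for 17 of the 26 genes, 22 promoters in all, and 3 of the 22 (13.6%) held this motif on either strand, those of Hmgcs1, Dhcr7 and Msmo1. Among the 12561 promoters of tested genes 3.04% did.

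**Figure D5:**
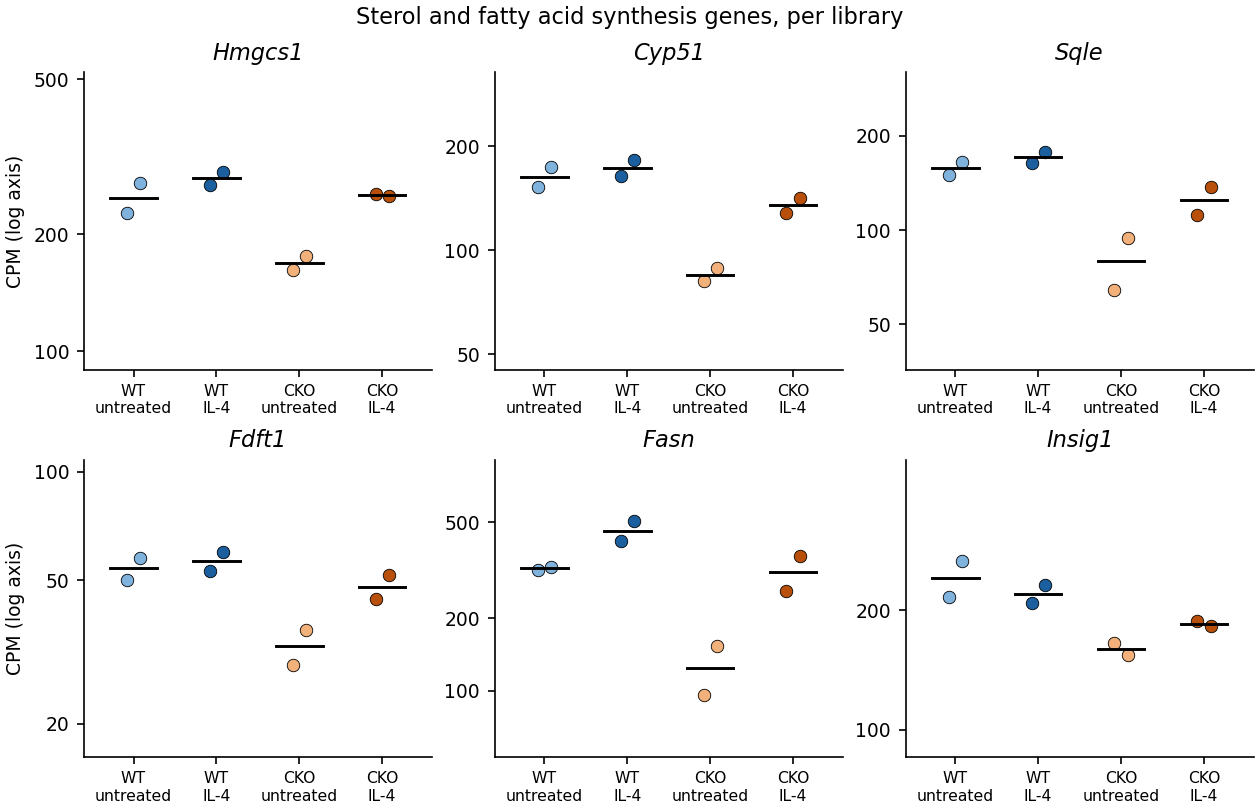
Each panel gives 1 of 6 sterol and fatty acid synthesis genes, with the CPM of each library as a point and the mean of the 2 libraries as a bar, on a logarithmic axis whose range differs between panels. In each panel the untreated CKO libraries hold the lowest values and the CKO IL-4 libraries lie closer to the WT ones.

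The 44 tested cell cycle and DNA replication genes also all had a positive difference, with a median of 0.53, and none passed the test in either genotype's IL-4 response or for the difference by edgeR. By DESeq2 3 fell in WT, 2 rose in CKO and 0 were called for the difference. In edgeR 4 had an unadjusted p under 0.05 for the difference, where 6.02% of all tested genes did. The median response was -0.23 in WT and 0.30 in CKO. Mki67, a marker of cycling cells chosen after its values were seen, stood at 1335 and 1206 CPM in untreated WT, 958 and 982 in WT with IL-4, 642 and 1104 in untreated CKO, and 907 and 1159 in CKO with IL-4. CKO untreated 1 was the lowest of the 8 libraries, and CKO untreated 2 lay within the range of the CKO IL-4 libraries. Without CKO untreated 1 the median difference of the list was 0.23 with 41 positive. Without CKO untreated 2 it was 0.96, 28 members rose in CKO and 12 were called for the difference. Without CKO IL-4 1 it was 0.72, and without CKO IL-4 2 it was 0.28 with 42 positive.

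The 15 mitochondrially encoded genes had a median difference of 0.34, which was -0.00172 without CKO untreated 1 and 1.15, with 7 members called, without CKO untreated 2. The 20 glycolysis genes had a median of 0.23 with 17 positive, and 0.08 with 13 positive without CKO untreated 1. None of either list was called by edgeR or DESeq2 for the difference. At an unadjusted p under 0.05 in edgeR there were 0 and 5 members, where 6.02% of all tested genes passed. Both lists therefore moved with the library that stood apart in mitochondrial RNA. Its part in these values was not tested further.

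Arginine and polyamine metabolism, the pathway around arginase, had 4 of 18 tested genes raised in WT, where 6.64% of all tested genes rose. In CKO 9 were raised, where 11.2% of all tested genes rose. None was called for the difference by edgeR, while DESeq2 called 1. At an unadjusted p under 0.05 there were 4, all positive, in edgeR, where 2.95% of all tested genes were positive. Slc7a2, the cationic amino acid transporter that brings arginine into the cell, stood at 7.90 and 6.45 CPM in untreated WT, 242 and 196 with IL-4, 5.12 and 4.99 in untreated CKO, and 320 and 309 in CKO with IL-4. It was lowest in untreated CKO and highest in CKO with IL-4, and the groups did not overlap. Its difference of 1.03 ± 0.190 (SE) did not pass (adjusted p = 0.152, edgeR). Gatm, the first enzyme of creatine synthesis from arginine, stood at 37.9 and 36.2, 80.5 and 78.2, 14.5 and 17.6, and 58.0 and 63.5 CPM in the same order, with a difference of 0.82 (adjusted p = 0.152, edgeR). Without CKO IL-4 2 the genes of the list that rose in CKO numbered 4.

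MHC class II and costimulation genes rose alike in number, 9 of 14 in each genotype with 1 falling, and their median difference was -0.04. Of all tested genes 6.64% rose in WT and 11.2% in CKO. The sign of that median turned in 4 of the 8 fits that left out a library, reaching 0.19 without CKO untreated 1 and 0.20 without WT IL-4 2. None was called for the difference by edgeR, and DESeq2 called 1. At an unadjusted p under 0.05 in edgeR 2 were positive and 1 negative, where 2.95% and 3.08% of all tested genes were. Of 36 antiviral interferon-stimulated genes, 12 fell in WT, where 5.59% of all genes did, and 17 fell in CKO, where 11.3% did, with 3 rising in each. Their median difference was -0.13, with none called by edgeR or DESeq2 and 2 negative at an unadjusted p under 0.05 in edgeR. Without CKO untreated 1 that median was 0.00845, on the other side of 0, and 9 fell in CKO. Without CKO IL-4 2, 8 fell in CKO. The number that fell in WT was 2 to 8 when 1 of the 4 WT libraries was left out. The 19 tested complement genes had a median of 0.22, which became -0.02 when members with a group at 0 were set to 3 counts over the group. For the 20 interferon-induced GTPases the same step moved the median from -0.09 to 0.05.

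Of 23 ER stress and ATF4 genes, 10 rose in WT, where 6.64% of all genes did, and 14 rose and 1 fell in CKO, where 11.2% rose. Their median difference was 0.21, with 1 positive and 1 negative at an unadjusted p under 0.05 in edgeR. Matrix remodelling and vessel growth genes had 13 of 37 raised and 7 lowered in WT, where 6.64% and 5.59% of all tested genes were. In CKO 15 were raised and 9 lowered, where 11.2% and 11.3% were, and the median difference was 0.14. At an unadjusted p under 0.05 in edgeR 8 of the 37 were positive and 3 negative, where 2.95% and 3.08% of all genes were. Of the 24 fatty acid oxidation and lipid uptake genes, 21 had an interval within a 2-fold difference, as did 24 of the 29 lysosome genes and 18 of the 22 MHC class I genes. The medians of these 3 lists were -0.16, -0.13 and -0.07, and the positive and negative genes at an unadjusted p under 0.05 numbered 1 and 1, 2 and 2, and 2 and 4. No member of these 5 lists was called for the difference by edgeR, and DESeq2 called 2 positive and 1 negative.

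The 14 tested monocyte markers had a median difference of -0.44, which was -0.12 without CKO untreated 1. Of these, 4 were negative and 0 positive at an unadjusted p under 0.05 in edgeR, where 3.08% and 2.95% of all tested genes were. The 22 immediate-early genes, which respond first to many stimuli, had a median of -0.33. It was -0.08 without CKO untreated 1, -0.12 without WT untreated 1 and 0.0117, on the other side of 0, without WT IL-4 2. The 9 colony-stimulating factor genes had a median of -0.28, which was -0.06 without CKO untreated 1 and -0.04 without CKO IL-4 2. None of these 3 lists had a member called for the difference by edgeR or DESeq2.

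Beyond the 6 called genes, 18 further genes had the smallest unadjusted p among genes whose mean log2 CPM was 3 or more, and were not past the test, with edgeR adjusted p from 0.0641 to 0.181. These calls depended on the settings: DESeq2 called all 18, edgeR called all 18 with no filter on low counts and 16 without CKO untreated 2, and each gene passed in 3 to 6 of 15 alternatives. Of these 10 were positive and 8 negative. Flt1, which encodes a receptor for vascular endothelial growth factor, stood at 0.559 and 0.375 CPM in untreated WT, 55.6 and 49.0 with IL-4, 2.69 and 2.05 in untreated CKO, and 68.6 and 75.8 in CKO with IL-4. It was higher in CKO than in WT in both treatments, with IL-4 not past the test (adjusted p = 0.0923, edgeR). Its difference was -1.86 ± 0.296 (SE; adjusted p = 0.0641, edgeR). C1qb, a chain of the complement starter C1q, stood at 472 and 503, 342 and 340, 49.5 and 28.3, and 105 and 79.1 CPM in the same order. CKO was far below WT in both treatments, and the difference was 1.76 ± 0.313 (SE; adjusted p = 0.152, edgeR). In the fits that left out 1 library the C1qb difference ran from 1.4 to 2.2. Kctd12 moved in opposite directions, falling by 0.42 in WT and rising by 0.41 in CKO, with a difference of 0.84 (adjusted p = 0.161, edgeR).

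The remaining positive genes were Got1, Nes, Kitl, Bcar3 and Fam46c, beside Mrc1, Slc7a2, C1qb, Gatm and Kctd12 above. Nes, the intermediate filament nestin, stood at 11.7 and 15.3 CPM in untreated WT, 16.6 and 17.3 with IL-4, 4.21 and 6.17 in untreated CKO, and 20.1 and 20.9 in CKO with IL-4, a difference of 1.64. Got1, the cytosolic aspartate aminotransferase, had a difference of 0.93, rising by 1.11 in CKO with a WT value of 0.17 that missed the threshold. Kitl, the ligand of the KIT receptor, had 1.21, the adaptor gene Bcar3 0.96 and Fam46c 1.19. The remaining negative genes were Mtus1, Mmp8, Id2, Cd24a, Ednrb, Arl4c and Cd34, with differences from -1.23 for Mtus1 to -0.71 for Id2. Mmp8, the neutrophil collagenase, stood at 196 and 180 CPM in untreated WT, 175 and 176 with IL-4, 673 and 549 in untreated CKO, and 307 and 259 in CKO with IL-4. It fell in CKO by 1.11, and its WT value was -0.10. Cd34, a marker of blood progenitors, stood at 4.40 and 5.08, 3.81 and 4.70, 21.0 and 23.1, and 8.56 and 9.70 CPM in the same order. Both were higher in CKO than in WT in each treatment and fell in CKO. Monocyte markers, as a list, summed to 302 and 319 CPM in untreated WT, 244 and 258 with IL-4, 677 and 629 in untreated CKO, and 326 and 363 in CKO with IL-4, none of the 15 at 0. The marker F13a1 alone gave 236.3 and 252.2, 117.9 and 123.1, 504.3 and 483.5, and 172 and 208.2 CPM of these sums, in the same order. Whether monocytes contribute to the Cd34 and Mmp8 differences was not tested.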

How the data were processed

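RNA of mouse bone marrow-derived macrophages was sequenced after a capture-based RNA exome preparation, in 12 libraries of 6 groups, 2 per group. The deposited values are raw read counts per gene. The submitters' processing notes name HTSeq 0.6.1, Picard 1.97, TopHat2 2.0.13 and CASAVA 1.8.2, with no order, and list both GRCh38 and mm10 as builds. Which build, annotation release and strand setting gave these counts is not given in the sources used here. Of 48440 genes, 22932 had no count and 16292 passed edgeR's filterByExpr. Counts were scaled by TMM and fitted with edgeR 4.0.16 (R 4.3.3) as 6 group means, with a robust quasi-likelihood F test and Benjamini-Hochberg adjustment over all tested genes, at an adjusted p under 0.05. The model left 6 residual degrees of freedom. Standard errors and 95% intervals are of the Wald kind and measure library spread. The fit, including the difference of responses, was also run on simulated data, drawn with the gene spread that the fit itself had estimated. In these the groups shared each gene's mean, apart from set changes in CKO with IL-4 for well-counted genes. No simulated library stood apart and no changed gene had a group near 0 counts, so the simulation does not bear on such cases. Positions come from the GRCm38 annotation and promoters from RefSeq (GRCm38.p6).

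The text names called genes at a mean log2 CPM of at least 1, up to 12 in each direction, then genes with the smallest unadjusted p at a mean log2 CPM of at least 3 until 24 were reached. It also names called members of each gene list and 21 classical IL-4 genes, and other genes were chosen after their values were seen. Members and lists were chosen with earlier results of these data known. Lists are given by counts and medians without a test. Alternatives were DESeq2 1.42.0, its size factors, no filter, a mean CPM of at least 5, only 8 libraries, replicate blocks and leaving out each library. One gene of the sterol list is not reported here by name.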

Additional observations from a re-analysis of the deposited data

Results flagged for a closer look

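The IL-4 response differed between genotypes, by the test of the difference itself (edgeR, adjusted p under 0.05), for 6 genes. On the log2 scale, CKO response minus WT response, the values were 2.71 for Acod1, 1.83 for Prps1, 1.23 for Flrt2, 1.12 for Angptl2, -1.39 for Ermard and -2.92 for Chil3. No group was tested for an outlying library, since each has 2.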

How the results depend on the processing

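The count of genes with a differing response, 6 in the reported fit, was 42 with DESeq2, 291 with no filter on low counts and 0 with only the 8 libraries. It ran from 1 to 329 when 1 library was left out, the highest without CKO untreated 2 and the lowest without WT untreated 1. The cause was not tested. With the library number as a replicate block the count was 26, and with a block within genotype it was 85, with all 6 genes among the calls of both. The labels do not say that the numbers pair libraries, and deviations of same-numbered libraries correlated across genes between -0.0471 and 0.724. Only WT IL-4 with CKO IFN-γ gave a negative value. Among the 4 groups of the difference the values ran from 0.16 to 0.533. Of the 18 genes next in p, 12 and 18 passed with these blocks. In the cell cycle list the genes at an unadjusted p under 0.05 numbered 24 and 36, against 4, with 0 called, and 5 and 18 rose in CKO. The block within genotype gave 3023 WT response calls, against 1992. Leaving out 1 library gave 898 to 2499 WT calls and 1725 to 5217 CKO calls. Values crossed 0 for 7 classical genes, none of them called. With 1 library left out, Arg1 ran from -2.31 to 0.29 and Retnla from -3.30 to 3.42, the highest without CKO untreated 1. Ccl22 was at 0.0048 with DESeq2, 0.0296 with no filter, 0.0216 with only 8 libraries, 0.0054 and 0.0088 with the 2 replicate blocks, and from -3.11 to 0.92 with 1 library left out. In those fits Cdh1 ran from -1.10 to 0.39, Irf4 from -0.43 to 0.0326, Socs1 from -0.39 to 1.01 and Stat6 from -0.11 to 0.0199. With 2 libraries a group and untreated counts near 0, the size of the largest inductions is poorly bounded.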
